A study of Mus musculus with 6 samples.

Results

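Fcγ receptors are the cell-surface proteins through which leukocytes bind the constant part of IgG, so that a therapeutic antibody of the human IgG1 subclass can meet them on any cell that carries them. In the mouse, Fcgr1 (FcγRI, CD64), Fcgr3 (FcγRIII) and Fcgr4 (FcγRIV) are activating receptors that signal through the common γ chain, encoded by Fcer1g, whose tyrosine-based activation motif (ITAM) recruits the kinase Syk. Fcgr2b is the inhibitory receptor, and its own tyrosine motif (ITIM) recruits the phosphatase SHIP1. Fcgrt encodes the heavy chain of FcRn, the endosomal receptor that returns IgG to the circulation.

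These 6 genes were taken by symbol from the 32285 genes of the feature list. Their unique molecular identifier (UMI) counts were followed in single cells from the lungs of 6 male hCTLA4 mice, a knock-in in which exons 2 and 3 of CTLA4 are human. The mice were described as 12 weeks old. Their lungs were collected after the treatment given below, and the age at collection was not stated. All mice had received bleomycin by the oropharyngeal route, 2 doses of 1.25 U/kg given 2 weeks apart. From day 21 after the second dose they were given antibody at 5 mg/kg for 4.5 weeks. It was an IgG1 isotype control (3 mice) or ipilimumab, a human IgG1 antibody to CTLA4 (3 mice). Both groups thus received an IgG1 and bleomycin and carry the knock-in, and no mouse without them is analysed here. Each captured 3′ end gives 1 count per molecule whatever the length of the transcript.

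The libraries held 37666042 to 48612412 UMIs, and 3268 to 4348 cells per mouse passed the filters, 24251 in all, with a median of 5944 to 7885 UMIs per cell. Of the cell barcodes, 60 occurred in more than 1 library, and no pair of libraries shared more than 7. The library of ipilimumab replicate 1 stood apart, with 22056 barcodes of at least 100 UMIs against 4834 to 6230 in the others, and with 78.8% of its UMIs in called cells against 92.4% to 93.1%. Cells were clustered without the 6 genes, and clusters were named by markers, so that each class name below stands for cells that are like that type. The 8 classes compared were alveolar macrophages (3396 cells), interstitial macrophages (110), classical monocytes (328), nonclassical monocytes (512), neutrophils (1907), NK cells (1475), B cells (8659) and endothelial cells (1074). A level below is a gene's UMIs per 1000000 UMIs of the class in 1 mouse (CPM), given as mean ± SD over 6 mice. The 10 alveolar macrophage markers summed to at least 10907 CPM in their own class, the 9 NK markers to at least 12257 and the 9 B cell markers to at least 10951. Interstitial macrophages reached 10 cells in only 2 mice per group, and their levels come from those 4 mice. Their own 10 markers summed to 6039.6 to 7562 CPM, but the alveolar macrophage markers reached 11351 CPM in the class in ipilimumab replicate 3. In alveolar macrophages these markers summed to 31841 CPM in that mouse and to 10907 to 12751 CPM in the others. The part of these markers in the levels of interstitial macrophages was not tested.

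**Figure D1:**
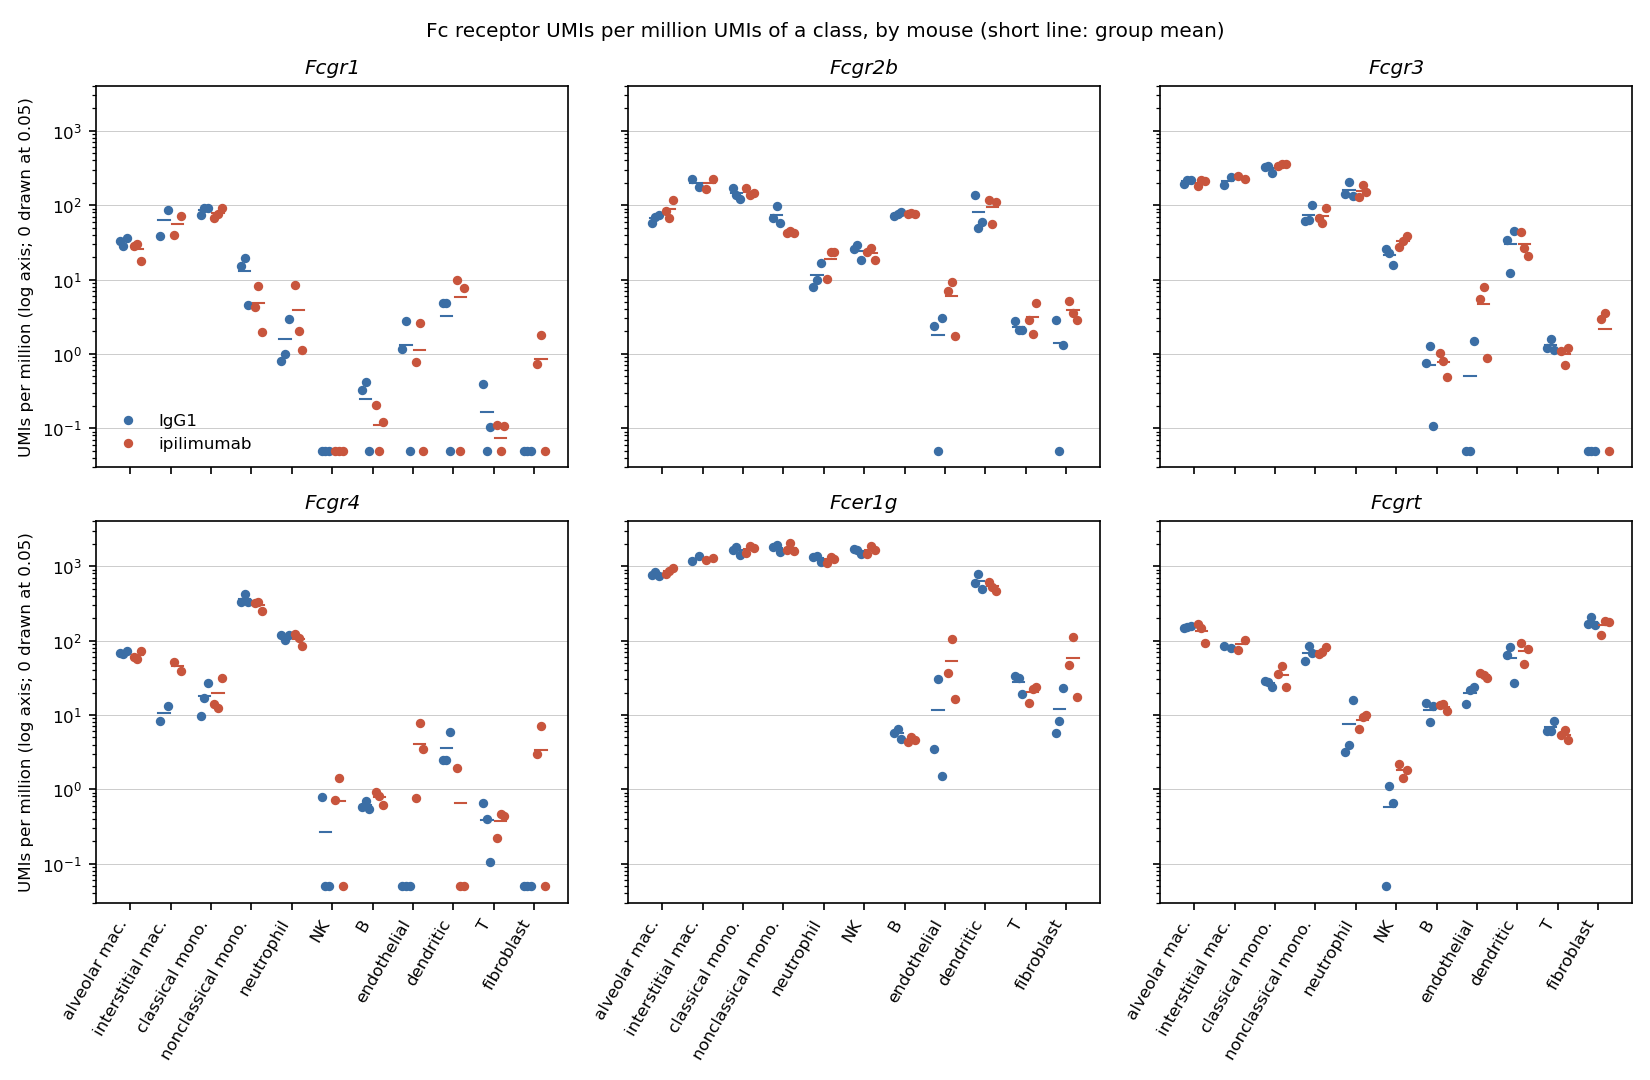
Levels in CPM of each class (log axis, with 0 drawn at 0.05) for the 6 genes, 1 point per mouse coloured by group, with a short line at each group mean. Fcgr4 is highest in nonclassical monocytes, at 253 to 426 CPM, while Fcgr1 and Fcgr3 have their highest means in classical monocytes.

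The activating receptors differed in which myeloid class carried most of each. Fcgr4, at chr1:171018920-171029761 on the forward strand (GRCm38), stood at 331 ± 55.5 CPM (SD, n = 6) in nonclassical monocytes, the patrolling subset, where the mice ranged from 253 to 426 CPM with a median of 329. Neutrophils followed at 109 ± 14.1 CPM and alveolar macrophages at 65.7 ± 6.43 CPM, and the ranges of these 3 classes did not overlap. Interstitial macrophages (28 ± 20.7 CPM, n = 4) and classical monocytes (18.7 ± 8.81 CPM) came next, with ranges that overlapped. A cluster of 146 monocytes with markers of both monocyte classes, left unnamed, had Fcgr4 at 21.4 to 89.5 CPM, between the means of the named classes.

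Fcgr3, at chr1:171051174-171064935 on the reverse strand, had another order. It was highest in classical monocytes, the inflammatory subset, at 333 ± 32.9 CPM, and their range of 272 to 361 CPM lay above every other class. Interstitial macrophages (224 ± 26.1 CPM, n = 4), alveolar macrophages (206 ± 15.2 CPM) and neutrophils (157 ± 30.5 CPM) formed a series in which each neighbouring pair overlapped. Nonclassical monocytes, highest for Fcgr4, had Fcgr3 at 73.3 ± 18.1 CPM, below all of these. NK cells, in which FcγRIII is the receptor of antibody-dependent cytotoxicity, had 27.1 ± 8.02 CPM.

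Fcgr1, the high-affinity receptor at chr3:96282909-96293969 on the reverse strand, reached 81.5 ± 10.5 CPM in classical monocytes and 58.8 ± 23.99 CPM in interstitial macrophages (n = 4), with overlapping ranges. Alveolar macrophages had 29.05 ± 6.34 CPM, nonclassical monocytes 8.95 ± 6.97 CPM and neutrophils 2.71 ± 2.88 CPM. The monocyte classes thus lay in opposite order for Fcgr1 and Fcgr4, with no overlap for either gene. No Fcgr1 UMI was found in 1475 NK cells, which allows a share of cells with a UMI of up to 0.203% by the rule of 3 counts (exact 95% upper bound 0.2498%).

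The stretches of upstream sequence shown next are those in which the activating receptors share letters that were not found for the other genes of the set. The 250 bases before the RefSeq start of each gene were searched on both strands for GAGGAAG, a form of the core that PU.1 and other ETS factors can bind, and for 4 other motifs, which were GGAA, the longer GAGGAA and also AGGAAG, all of which overlap with it, and the unrelated GGGCGG. The motif to show was chosen after the search. GAGGAAG was present for Fcgr1, Fcgr3 and Fcgr4, and 10.6% of 32851 promoters hold it. AGGAAG was present for the same genes and for Fcer1g, and 29.5% of promoters hold it. The stretches come from RefSeq for GRCm38.p6, on the strand of the gene, and the capitals mark the match, which reads as the reverse complement of GAGGAAG.
Fcgr4, chr1:171018868-171018925 (+): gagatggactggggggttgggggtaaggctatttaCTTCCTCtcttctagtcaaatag
Fcgr3, chr1:171059404-171059445 (-): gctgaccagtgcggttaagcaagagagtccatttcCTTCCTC
Fcgr1, chr3:96293984-96294060 (-): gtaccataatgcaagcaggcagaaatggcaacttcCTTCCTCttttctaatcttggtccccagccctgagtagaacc
The match lay 23 bases before the start of Fcgr4, 7 before that of Fcgr3 and 56 before that of Fcgr1. The gene spans given above are those of GENCODE. For Fcgr3 the span includes a transcript that starts farther upstream, so the stretch before the RefSeq start lies within the span, as do the last bases of the stretch of Fcgr4. A match is a description of the letters, and no binding was measured.

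Fcer1g, the adaptor of the activating receptors, lies at chr1:171229572-171234365 on the reverse strand. Nonclassical monocytes (1759.9 ± 195 CPM), classical monocytes (1666 ± 179.9 CPM) and NK cells (1627 ± 153 CPM) overlapped with each other and lay above neutrophils (1255 ± 107 CPM), interstitial macrophages (1255 ± 90.7 CPM, n = 4) and alveolar macrophages (821 ± 80.3 CPM). NK cells, without Fcgr1 UMIs and with Fcgr4 at 0.486 ± 0.582 CPM, thus overlapped with monocytes in the level of the adaptor. Dendritic cells, outside the 8 classes, had 581 ± 116 CPM, while T cells were at 23.9 ± 7.04 CPM and B cells at 5.17 ± 0.808 CPM. The coding sequence (GENCODE, 86 codons) holds the ITAM at codons 65 to 79, shown here because the activating receptors share this signalling unit, with the tyrosine codons in capitals.
Fcer1g ITAM: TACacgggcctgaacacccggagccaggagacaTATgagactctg

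Fcgr2b, the inhibitory receptor at chr1:170958617-170976547 on the reverse strand, was found in myeloid cells, B cells and NK cells. Interstitial macrophages (198 ± 32.9 CPM, n = 4) and classical monocytes (147 ± 19.3 CPM) led, and their ranges overlapped. Alveolar macrophages (77.9 ± 20.9 CPM), B cells (76.1 ± 3.15 CPM) and nonclassical monocytes (58.6 ± 21.95 CPM) overlapped from neighbour to neighbour, and the B cell level had the smallest SD of these, with a range of 71.97 to 80.3 CPM. NK cells (23.5 ± 4.39 CPM) and neutrophils (15.3 ± 7.09 CPM) overlapped below them. Dendritic cells, outside the 8 classes, had 87.6 ± 37.4 CPM. The ITIM of Fcgr2b, at codons 317 to 322 of the 340 of its longest coding transcript, is shown with its tyrosine codon in capitals, beside the paired tyrosines of the adaptor above.
Fcgr2b ITIM: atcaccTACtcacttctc

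Free RNA in the droplets can give a UMI to a cell that does not express a gene, so the share of cells with at least 1 UMI was set beside that of T cells, at a median depth of 8510 UMIs. Fcgr3 was found in 15.5% of NK cells (exact 95% interval 13.7% to 17.5%, median depth 6020 UMIs) against 1.03% of T cells (0.7796% to 1.34%). With every cell thinned to 1000 UMIs, the shares were 2.18% and 0.114%. Fcgr2b was found in 12.5% of NK cells (10.8% to 14.3%) against 1.86% of T cells, and at 1000 UMIs in 2.52% against 0.227%. As a class, NK cells thus carried an activating and the inhibitory receptor above the T cell share. In single NK cells at full depth, 1.97% had UMIs of both, 13.7% of an activating receptor only, 10.5% of Fcgr2b only and 73.8% of neither. In B cells (median depth 5605 UMIs), Fcgr2b was found in 32.1% of cells (31.2% to 33.1%), and at 1000 UMIs in 6.86%. Fcgr3 was found in 0.4504% of B cells, below the share of the deeper T cells, and at 1000 UMIs in 0.0697% against 0.114%, with overlapping intervals. Whether the Fcgr3 UMIs of B cells are background was not tested. Fcgr4 was found in 0.393% (0.272% to 0.548%), an interval that holds the 0.357% of T cells. These intervals cover counting error only.

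Endothelial cells (median depth 3489.5 UMIs) held few UMIs of the receptors that signal. In 1074 cells there were 5 UMIs of Fcgr1, 15 of Fcgr3, 11 of Fcgr4 and 22 of Fcgr2b. Fcgr2b was found in 1.397% and Fcer1g in 4.097% of endothelial cells, against 1.86% and 6.65% of the deeper T cells. At 1000 UMIs, with the cells of both groups pooled, the shares were 0.448% against 0.227% for Fcgr2b and 1.68% against 1.704% for Fcer1g. The intervals overlapped for both, so neither pooled share was told apart from that of T cells. For Fcer1g this depended on the reference. In B cells its pooled share at 1000 UMIs was 0.57% (0.422% to 0.752%), below the pooled endothelial interval of 0.943% to 2.76%. In the IgG1 mice alone, the B cell share of 0.619% lay within the endothelial interval. The Fcer1g level of T cells (23.9 CPM) was itself above that of B cells (5.17 CPM). Whether T cells express Fcer1g was not tested. Fcgrt was found in 10.4% of endothelial cells against 4.83% of T cells, and at 1000 UMIs in 1.68% (0.943% to 2.76%) against 0.682% (0.478% to 0.943%).

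**Figure D2:**
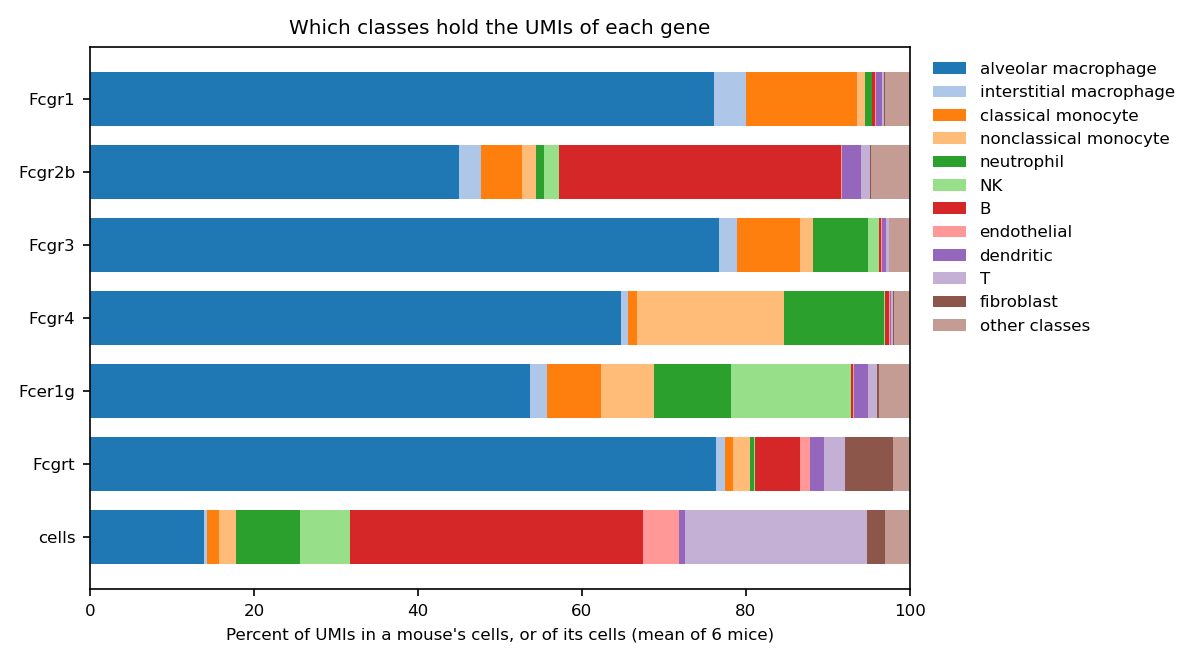
Stacked horizontal bars give the percent of each gene's UMIs, and of the cells, that fall in each class (mean of 6 mice). Alveolar macrophages hold 13.9% of cells and 76.1% of Fcgr1 UMIs but 45.04% of Fcgr2b, of which B cells hold 34.3%.

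Summed over all cells of a mouse, alveolar macrophages held most of the activating receptor RNA. With 13.9% of the cells, they held 76.1 ± 7.07% of Fcgr1 UMIs, 76.7 ± 7.08% of Fcgr3, 64.8 ± 12.2% of Fcgr4 and 53.7 ± 8.86% of Fcer1g (SD, n = 6). Their cells were also deep, with a median of 21332.5 UMIs, which enters these shares. Nonclassical monocytes, 2.13% of the cells, held 17.9 ± 10.4% of Fcgr4, and classical monocytes, 1.37% of the cells, held 13.5 ± 5.36% of Fcgr1. NK cells held 14.6 ± 2.71% of Fcer1g. Fcgr2b was shared between alveolar macrophages (45.04 ± 13.6%) and B cells (34.3 ± 11.7%), which made up 35.7% of the cells.

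The balance of activating to inhibitory receptor was taken in each mouse as the UMIs of Fcgr1, Fcgr3 and Fcgr4 together over those of Fcgr2b. Neutrophils had the highest ratio, with a median and range over 6 mice of 20.3 (9.95 to 32.9). Nonclassical monocytes had 7.98 (5.17 to 9.1), alveolar macrophages 4.43 (2.56 to 5.18) and classical monocytes 3.21 (2.37 to 3.34). Interstitial macrophages had 1.703 (1.04 to 2.04) in 4 mice and NK cells 1.11 (0.788 to 2.1). In B cells the ratio was 0.0216 (0.008097 to 0.0318), from 86 activating and 4070 inhibitory UMIs. The range of neutrophils, on 10 to 30 Fcgr2b UMIs per mouse, lay above those of all other classes. Nonclassical monocytes and alveolar macrophages overlapped at the edge. Alveolar macrophages and classical monocytes overlapped, as did interstitial macrophages and NK cells. In single cells at full depth, 69.2% of classical monocytes had UMIs of both an activating receptor and Fcgr2b, against 46.4% of alveolar macrophages, 21.5% of nonclassical monocytes and 2.73% of neutrophils. These shares follow depth as well as level: at 1000 UMIs they were 3.66%, 1.903%, 1.38% and 0.161%.

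Within neutrophils, Fcgr2b differed between a larger cluster of 1649 cells (cluster 5) and a smaller one of 258 (cluster 15). Both had S100a8 and S100a9 as leading genes, and Clec4d and the immunoglobulin gene Igha were also among the 10 leading genes of cluster 15. The marker score of cluster 15 was 2.51 for neutrophils and 2.25 for nonclassical monocytes, against 3.25 and 0.264 in cluster 5, and the part of other cells in its values was not tested. Fcgr2b stood at 4.999, 9.57 and 13.6 CPM in cluster 5 of the IgG1 mice and at 4.62, 4.19 and 13.3 CPM in the ipilimumab mice. In cluster 15 it stood at 19.1, 11.8 and 29.4 CPM and at 32.7, 77.6 and 45.4 CPM, on 4 to 20 UMIs per mouse. Fcgr2b was thus higher in cluster 15 in 6 of 6 mice, as was Fcgrt, at 11.4 to 68.7 CPM against 0.9997 to 5.58 CPM. Fcgr4 (82.9 to 178 CPM against 81.4 to 117 CPM) and Fcgr3 (115 to 167 CPM against 126 to 212 CPM) overlapped. Clusters are drawn from the same cells, so these differences carry no test.

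Alveolar macrophages fell into cluster 3 (1733 cells) and cluster 4 (1663 cells), of which cluster 4 had Spp1 and Ctsk among its 10 leading genes. Fcgr2b was higher in cluster 4 in 6 of 6 mice, at 68.9 to 127 CPM against 43.8 to 97.5 CPM, with ranges that overlapped. The same held for Fcgr3, at 195 to 238 CPM against 170.4 to 197 CPM.

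**Figure D3:**
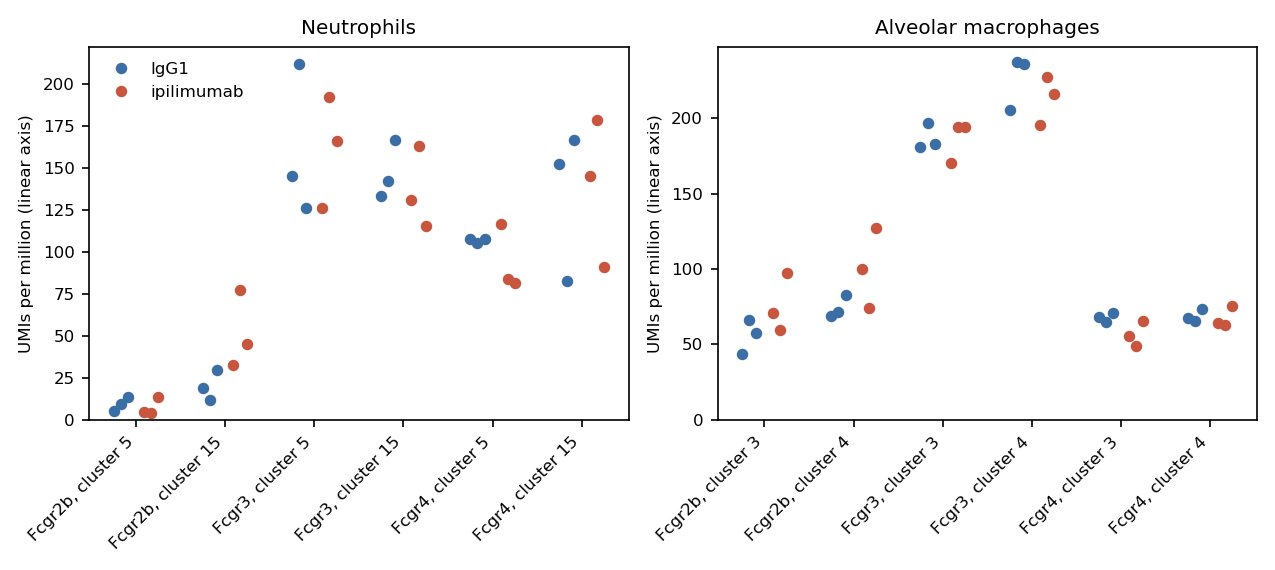
Levels in CPM (linear axis, 1 point per mouse, coloured by group) of Fcgr2b, Fcgr3 and Fcgr4 in the clusters of neutrophils (left) and alveolar macrophages (right). Fcgr2b reaches 13.6 CPM at most in neutrophil cluster 5 and 77.6 CPM in cluster 15, while Fcgr3 and Fcgr4 overlap between these clusters.

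Fcgrt, at chr7:45092990-45103851 on the reverse strand, had an order of its own. Fibroblasts, outside the 8 classes, had 169 ± 28.5 CPM and alveolar macrophages 144 ± 26.8 CPM, with overlapping ranges. Interstitial macrophages (85.9 ± 12.1 CPM, n = 4), nonclassical monocytes (70.6 ± 11.7 CPM) and dendritic cells (65 ± 24.3 CPM) followed, then classical monocytes (30.7 ± 8.31 CPM) and endothelial cells (27.02 ± 8.52 CPM). Each of these overlapped with its neighbour in the order. B cells had 12.3 ± 2.38 CPM, neutrophils 8.13 ± 4.67 CPM, T cells 6.11 ± 1.24 CPM and NK cells 1.19 ± 0.789 CPM. Among endothelial cells, aerocytes, the thin capillary cells of gas exchange, had 37.8 ± 14.6 CPM and the remaining cells 18.3 ± 8.17 CPM, with ranges of 24.2 to 57.6 CPM and 7.36 to 31.9 CPM that overlapped. B2m, the light chain of FcRn and of MHC class I, ranged over the 8 classes from 938 CPM in B cells to 3176 CPM in nonclassical monocytes.

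The genes whose pattern over 12 classes was most like each receptor were taken by Pearson's r of log2(CPM + 10) among 7322 genes. They were Tyrobp (r = 0.98), Apobr and Efhd2 for Fcer1g, and Msr1 (r = 0.96), Gas2l3 and Adap2 for Fcgr1. For Fcgr3 they were Tmem189 (r = 0.93), Clec4a2 and Pirb, and for Fcgr4 C130050O18Rik (r = 0.96), Gk and Pilra. For Fcgr2b they were Scamp2 (r = 0.94), Erp29 and Gm42031, and for Fcgrt Rnd3 (r = 0.91), Rnf217 and Spire1. The points are classes of the same 6 libraries and differ in depth, so r is a description.

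The comparison of ipilimumab with the IgG1 isotype control asked whether the RNA of these receptors differed between the groups. Of the 48 pairs of a gene and a class, 35 had enough counts to be tested and 13 did not, among them Fcgr1 outside macrophages and classical monocytes and Fcgr4 in NK, B and endothelial cells. With edgeR's quasi-likelihood test, Benjamini-Hochberg adjustment over all genes of the class and an absolute log2 fold change over 0.3, 0 of the 35 were called. The background was as low: 0% of 12593 genes were called in alveolar macrophages, and likewise 0% of 5155 in interstitial macrophages, 6214 in classical and 6106 in nonclassical monocytes, 5953 in neutrophils, 8858 in NK cells and 11649 in B cells. In endothelial cells 0.0123% were called, 1 of 8137 genes (Pim1, which is no receptor and on no list). At an unadjusted p under 0.05 there were 5 of the 35 pairs (14.3%), against 6.12% of the 64665 gene and class pairs tested in all, and DESeq2 called 0, giving no adjusted p for Fcer1g and Fcgrt in B cells or in endothelial cells. Of the 35, 18 were higher and 17 lower in the ipilimumab group. The standard error (SE) of a log2 fold change was taken as its absolute value over the square root of edgeR's F statistic. The p-values come from edgeR's F test and not from this SE. The SE had a median of 0.21 and a range of 0.08 to 0.81, which sets the size of difference that 3 mice per group could show.

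**Figure D4:**
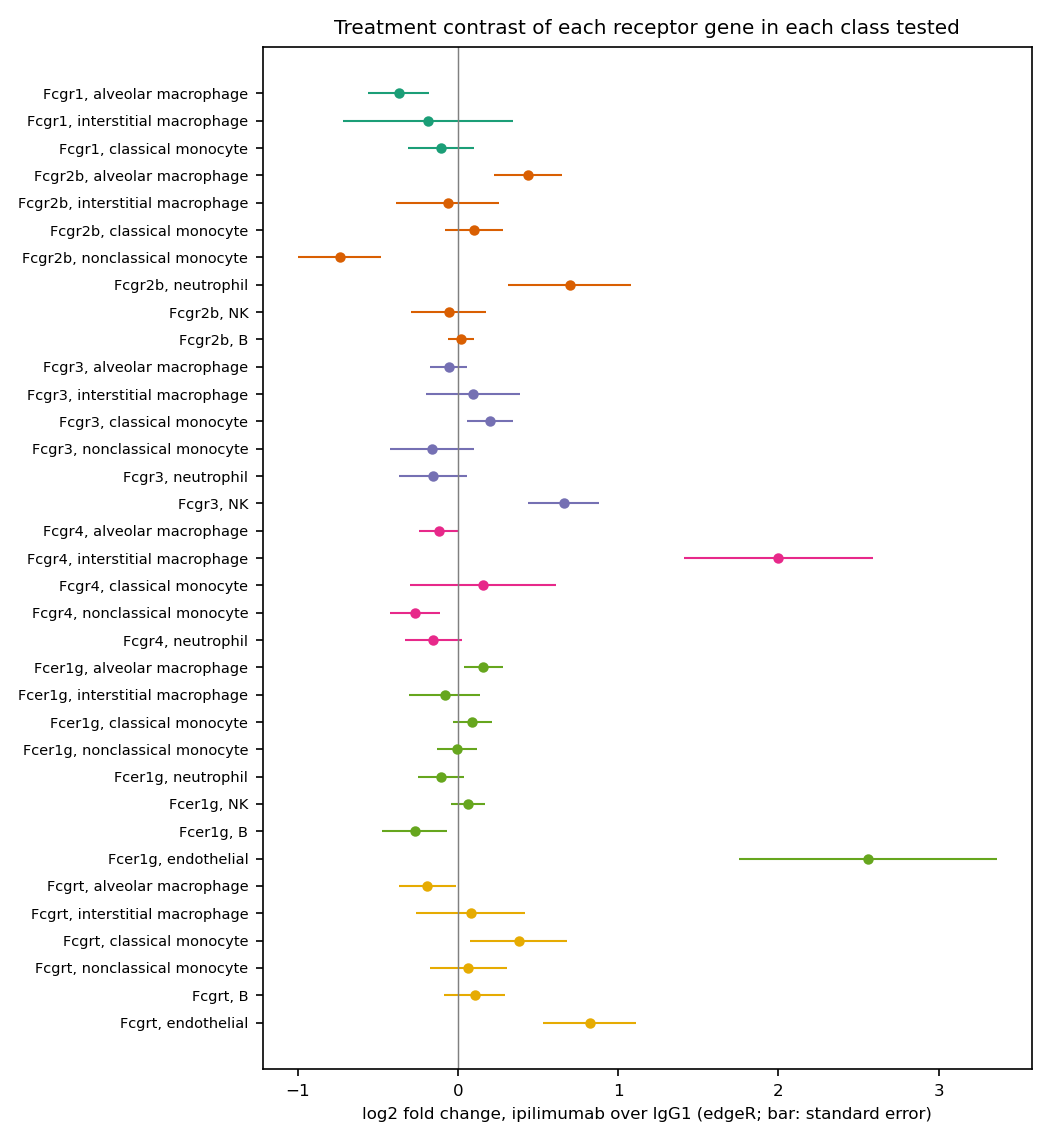
Log2 fold change of ipilimumab over IgG1 (points) with its standard error (bars) for the 35 pairs tested, ordered by gene and class. The farthest from 0 are Fcer1g in endothelial cells (2.56) and Fcgr4 in interstitial macrophages (2.00), and neither passed the adjustment.

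In alveolar macrophages, which held most of this RNA, Fcgr3 stood at 194, 219 and 217 CPM in the IgG1 mice and at 181, 215 and 208 CPM in the ipilimumab mice. Fcgr4 stood at 67.7, 64.99 and 72.7 CPM and at 59.4, 57.3 and 72.2 CPM. The groups overlapped for both, with log2 fold changes of -0.06 ± 0.12 (SE) and -0.12 ± 0.12. Fcgr2b stood at 56.7, 68.8 and 73.7 CPM in the IgG1 mice and at 83.4, 68.2 and 117 CPM in the ipilimumab mice, again overlapping (0.44 ± 0.21, edgeR adjusted p = 0.863). Fcgr1 stood at 32.9, 28.5 and 36.7 CPM against 28.04, 30.2 and 17.9 CPM, with overlap (-0.37 ± 0.19, edgeR adjusted p = 0.863). Fcer1g (0.16 ± 0.12) and Fcgrt (-0.19 ± 0.18) overlapped as well. Ipilimumab replicate 3 held the highest Fcgr2b, the lowest Fcgr1 and the lowest Fcgrt, at 91.7 CPM. Its alveolar macrophage markers summed to 31841 CPM in this class against 10907 to 12751 CPM in the other mice, and their part in these values was not tested. Without this mouse the log2 fold changes were 0.15 for Fcgr2b and -0.18 for Fcgr1.

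In nonclassical monocytes, the class of highest Fcgr4, Fcgr2b stood at 67.9, 98.3 and 57.01 CPM in the IgG1 mice and at 42.6, 44.2 and 41.8 CPM in the ipilimumab mice, on 18 to 54 UMIs per mouse. The ipilimumab mice were lower, without overlap, and close together. The class held 3 clusters. Fcgr2b separated the groups in cluster 8.1 (73.5, 51.3 and 64.2 CPM against 34.2, 46.3 and 41.7 CPM). It overlapped in cluster 8.2 (54.3 and 33.1 CPM in 2 IgG1 mice against 43.6, 42.9 and 37.9 CPM) and in cluster 8.3 (48.1, 238 and 63.5 CPM against 57.5, 42.7 and 55.9 CPM), where IgG1 replicate 2 stood highest, on 3 to 25 UMIs per mouse and cluster and with no test. Over the whole class the log2 fold change was -0.74 ± 0.26, with an unadjusted p of 0.012 that did not pass the adjustment (edgeR adjusted p = 0.691). Fcgr4 stood at 332, 426 and 333 CPM against 316, 327 and 253 CPM, also lower without overlap (-0.26 ± 0.16, edgeR adjusted p = 0.926), and at a log2 fold change of 0.58 with doublets kept, when classical monocytes formed no class of their own. The 8 classical monocyte markers summed here to 267 to 295 CPM in the IgG1 mice and 233 to 259.7 CPM in the ipilimumab mice, and their part in the result was not tested. The ratio of activating to inhibitory UMIs was 6, 5.17 and 7.68 against 9.1, 8.89 and 8.29, without overlap. The difference in mean log2 ratio was 0.50, with an exact two-sided permutation p of 0.1, the smallest that 3 against 3 mice allow, and 0.3 adjusted over 6 classes.

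In NK cells, Fcgr3 stood at 25.5, 22.6 and 15.5 CPM in the IgG1 mice and at 27.3, 33.1 and 38.4 CPM in the ipilimumab mice, on 24 to 71 UMIs per mouse. The ipilimumab mice were higher without overlap, although the nearest mice of the groups lay closer than the mice within either group spread. The log2 fold change was 0.66 ± 0.22, with an unadjusted p of 0.00764 and an edgeR adjusted p of 0.882. Fcgr2b (18.1 to 28.7 CPM) and Fcer1g (1454 to 1867 CPM) overlapped between the groups in these cells. The ratio was 1.03, 0.788 and 0.857 against 1.18, 1.298 and 2.1, without overlap, with a difference in mean log2 ratio of 0.74 and an exact permutation p of 0.1, 0.3 adjusted. The alveolar macrophage markers in NK cells summed to 141 to 151 CPM and 129 to 269.7 CPM, the neutrophil markers to 18.7 to 50.7 CPM and 15.9 to 23.8 CPM, and the classical monocyte markers, without overlap, to 671 to 712 CPM and 725 to 811 CPM. Their part in the result was not tested.

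**Figure D5:**
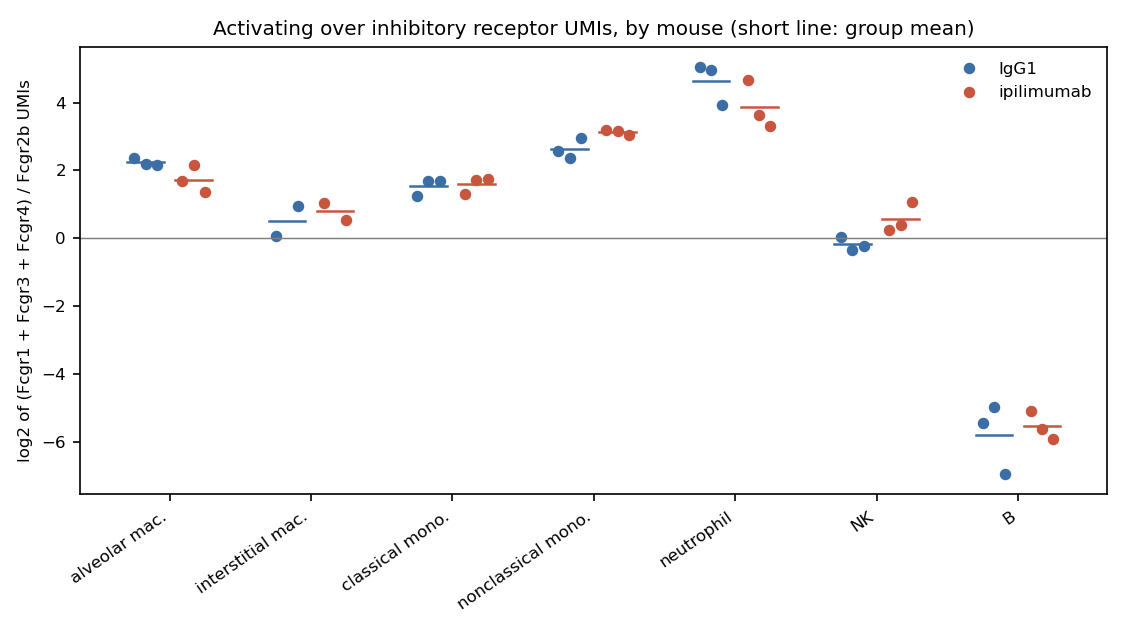
Log2 of activating (Fcgr1, Fcgr3 and Fcgr4) over inhibitory (Fcgr2b) UMIs in 7 classes, 1 point per mouse, with a short line at each group mean and a grey line at equal UMIs. Of the 6 classes tested, the groups do not overlap in nonclassical monocytes and NK cells, where the ipilimumab mice are higher.

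In the other classes tested the ratio overlapped between the groups. The difference in mean log2 ratio was -0.51 in alveolar macrophages and -0.77 in neutrophils (exact permutation p = 0.2 and 0.2), 0.05 in classical monocytes (exact permutation p = 0.5) and 0.24 in B cells (exact permutation p = 0.9). The neutrophil difference turned to 0.033 when cells were called down to 200 UMIs, and was -0.50 without ipilimumab replicate 3 and -1.17 without ipilimumab replicate 1, and the alveolar macrophage difference was -0.32 without ipilimumab replicate 3. In neutrophils, Fcgr2b stood at 7.92, 9.83 and 16.8 CPM in the IgG1 mice and at 10.2, 23.6 and 23.6 CPM in the ipilimumab mice (0.70 ± 0.38, edgeR adjusted p = 0.774), with overlap. Cluster 15, which carried more Fcgr2b, made up 16.7%, 6.49% and 10.6% of the neutrophils of the IgG1 mice and 23.6%, 17.8% and 20.4% of those of the ipilimumab mice, and its part in the neutrophil value was not tested. Fcgr4 in neutrophils stood at 117, 103 and 119.5 CPM against 122, 109 and 84.4 CPM (-0.15 ± 0.18). In B cells, Fcgr2b stood at 71.97, 75.05 and 80.3 CPM against 74.9, 79.4 and 74.9 CPM, with a log2 fold change of 0.02 ± 0.08 and an approximate 95% interval from the SE of -0.13 to 0.18.

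In endothelial cells, Fcgrt stood at 14.01, 21.9 and 24.1 CPM in the IgG1 mice and at 36.4, 34.2 and 31.4 CPM in the ipilimumab mice, on 8 to 47 UMIs per mouse. The ipilimumab mice were higher without overlap (0.82 ± 0.29, unadjusted p = 0.0136, edgeR adjusted p = 0.331). Aerocytes made up 27.5%, 34.2% and 54.5% of the endothelial cells of the IgG1 mice and 41.4%, 25.8% and 29.8% of those of the ipilimumab mice. Within aerocytes Fcgrt did not overlap either, at 25.6, 24.2 and 28.3 CPM against 57.6, 37.3 and 53.7 CPM. These values rest on 95 UMIs in all, from 27 to 132 aerocytes per mouse. In the remaining endothelial cells the groups overlapped, at 7.36, 20.01 and 14.7 CPM against 20.4, 31.9 and 15.1 CPM, on 3 to 15 UMIs per mouse. Fcer1g in endothelial cells stood at 3.503, 30.1 and 1.51 CPM against 36.4, 105 and 16.6 CPM, and the groups overlapped (2.56 ± 0.81, unadjusted p = 0.00726, edgeR adjusted p = 0.273). Its log2 fold change was 4.18 without IgG1 replicate 2, 1.66 without ipilimumab replicate 2 and 0.82 with doublets kept. Without the filter on low counts it was called, the one call of a receptor under any setting. The 10 alveolar macrophage markers summed in endothelial cells to 127 to 157 CPM in the IgG1 mice and 171 to 459.7 CPM in the ipilimumab mice. In the same order, the NK markers summed to 1.17 to 5.48 CPM and 5.24 to 140.7 CPM. The classical monocyte markers summed to 13.6 to 43.8 CPM and 20.1 to 130.1 CPM. Neutrophil markers (12.05 to 98.6 CPM and 35.8 to 51.3 CPM) and nonclassical monocyte markers (708 to 951 CPM and 569 to 818 CPM) reached their highest sums in IgG1 mice. Fcer1g in fibroblasts stood at 5.65, 8.19 and 22.7 CPM against 46.7, 111 and 17.2 CPM and was highest in the same mouse, ipilimumab replicate 2. In the free RNA, Fcer1g stood at 379.6 to 666 CPM and Fcgrt at 58.4 to 93.8 CPM over the 6 libraries. The part of free RNA and of these markers in the endothelial values of Fcer1g and Fcgrt, aerocytes included, was not tested.

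In interstitial macrophages, Fcgr4 stood at 8.18 and 13.3 CPM in 2 IgG1 mice and at 51.5 and 38.98 CPM in 2 ipilimumab mice, on 3 to 17 UMIs per mouse, without overlap (2.00 ± 0.59, unadjusted p = 0.0112, edgeR adjusted p = 0.779). IgG1 replicate 3 and ipilimumab replicate 2, with fewer than 10 cells, were left out of this fit. The alveolar macrophage markers, of a class with more Fcgr4, summed here to 155 and 209.9 CPM in the IgG1 mice and to 1358 and 11351 CPM in the ipilimumab mice, and their part in the result was not tested. Without ipilimumab replicate 1, the library that stood apart, the log2 fold changes were 1.81 for Fcgr4 in these cells, a fit with 1 mouse in the ipilimumab group that was assumed to vary like the IgG1 mice, -0.73 for Fcgr2b in nonclassical monocytes, 0.76 for Fcgr3 in NK cells, and 0.76 for Fcgrt and 2.76 for Fcer1g in endothelial cells. The differences in mean log2 ratio were then 0.47 in nonclassical monocytes and 0.90 in NK cells, and in NK cells it was 0.48 without ipilimumab replicate 3 instead.

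For the remaining 20 pairs the log2 fold changes ranged from -0.27 to 0.38, with SE of 0.11 to 0.53 and a smallest unadjusted p by edgeR of 0.189.

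The wider pathway was read from 5 lists of 39 genes. Lyn, a Src-family kinase that phosphorylates the ITAM, ranged over the 8 classes from 407 CPM in endothelial cells to 2257 CPM in neutrophils. Syk, which binds the phosphorylated ITAM, stood at 545 to 1393 CPM in the myeloid classes, at 1048 CPM in B cells and at 157 CPM in NK cells. In NK cells, the kinase Btk (1.26 CPM) was near 0, while Cd247, the ζ chain, had 339 CPM against at most 12.5 CPM in the other 7 classes. Inpp5d, which encodes SHIP1, ranged from 118 CPM in endothelial cells and 173 CPM in alveolar macrophages to 1469 CPM in B cells. Fcmr, Fcrla, Fcer2a and Fcrl1, Fc receptors and relatives of the B lineage, had 188 to 381 CPM in B cells and at most 30.3 CPM in the others. Clec4d, a lectin receptor that uses the γ chain, had 2949 CPM in neutrophils and at most 259 CPM in the others.

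Of the 198 tested pairs of a list gene and a class 0 were called by edgeR, and at an unadjusted p under 0.05 there were 7 higher and 2 lower in the ipilimumab group (4.55%, against 6.12% of all pairs). In nonclassical monocytes these were Fgr, a Src-family kinase (761 ± 82.4 CPM against 983 ± 87.7 CPM, 0.37 ± 0.13), Clec4d (0.97 ± 0.38) and Clec4e (0.55 ± 0.20), all higher, the log2 fold change with its SE standing last. Lyn in neutrophils (2466 ± 119 CPM against 2048 ± 47.4 CPM, -0.33 ± 0.13) and Lcp2 in NK cells, the adaptor SLP-76 (92.2 ± 10.3 CPM against 64.5 ± 16.2 CPM, -0.51 ± 0.16), were lower. In interstitial macrophages, Clec4e (2.36 ± 0.92) and Clec4d (1.17 ± 0.47) were higher, beside the alveolar macrophage markers given above. In endothelial cells, Plcg2, a phospholipase of the Syk pathway (8.16 ± 4.46 CPM against 28.3 ± 5.15 CPM, 1.81 ± 0.41), and Tyrobp, another ITAM adaptor (6.49 ± 4.75 CPM against 71.1 ± 77.9 CPM, 3.48 ± 0.88), were higher. The part in these values of the markers of other classes, given above for endothelial cells, was not tested. The smallest edgeR adjusted p of these 9 was 0.175, for Plcg2. In alveolar macrophages the median log2 fold change was -0.06 over the 12 kinases and adaptors and -0.07 over the 7 inhibitory phosphatases and adaptors, against 0.01 over all genes tested.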

How the data were processed

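The deposited matrices held raw UMI counts for every barcode, made by the authors with Cell Ranger on mm10. The version was 4 in the file headers and 7.0.0 in the submitters' processing notes, and the paper's methods give yet another. The authors' later steps, such as removal of ambient RNA, are not in these counts. Barcodes were called as cells by a UMI threshold or by a profile test against free RNA (at least 500 UMIs, false discovery rate 0.01). Cells had at least 200 genes and at most 10% mitochondrial UMIs, and the cells with the highest Scrublet scores, 0.8% per 1000 cells, were removed as doublets. Leiden clusters (scanpy 1.11.5, leidenalg 0.10.2, 10 principal components) were named by marker lists, and clusters without a clear name were left unnamed. Counts were summed per mouse and class and tested with edgeR 4.0.16 (TMM, filterByExpr, quasi-likelihood, R 4.3.3), with DESeq2 1.42.0 as an alternative. The script was tested on simulated data. Ratios were compared by an exact permutation test over mice.

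Named genes were the 6 receptors, list genes called or, up to 2 per list and class, with the largest change at an unadjusted p under 0.05, and the 3 genes most like each receptor. The members, lists and rules were chosen with earlier results of these data known. The mice are the replicates. In the last 500 bases, 5.10% of the 31-base words of Fcgr2b, 3.40% of Fcgr4, 0.521% of Fcgr3 and 0% of the other 3 occur in another gene, where reads could not be told apart.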

Additional observations from a re-analysis of the deposited data

How the results depend on the processing

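No receptor was called in any class by edgeR or DESeq2 under any setting tried, except that 1, Fcer1g in endothelial cells (log2 fold change 2.56, adjusted p = 1.48e-08), was called without the filter on low counts. Over the settings its log2 fold change ranged from 0.82 to 4.18. The ranges were -0.96 to -0.46 for Fcgr2b in nonclassical monocytes, 0.48 to 0.78 for Fcgr3 in NK cells, 0.55 to 1.03 for Fcgrt in endothelial cells and 1.63 to 2.38 for Fcgr4 in interstitial macrophages, without a change of direction. The last range includes fits that leave 1 mouse in a group. Directions changed for Fcgr3 in alveolar macrophages with cells gated one by one on markers (0.057) and for Fcgr4 in nonclassical monocytes with doublets kept (0.58). With the profile test down to 200 UMIs, the difference in log2 ratio became -0.067 in classical monocytes and 0.033 in neutrophils. Leaving out 1 mouse at a time gave log2 fold changes of -0.13 to 0.035 for Fcgr3 and -0.34 to 0.00060 for Fcgrt in alveolar macrophages and -0.020 to 0.064 for Fcgr2b in B cells. It gave differences in log2 ratio of -0.097 to 0.18 in classical monocytes and -0.34 to 0.65 in B cells. The cause of these changes was not tested. With the replicate number as a block, 0 receptors were called. Deviations of mice of the same number had r from -0.22 to 0.24 over 21 pairs. The 2 values over 0.1 were those of replicate 1 in alveolar macrophages (0.24) and B cells (0.18). In neutrophils r was 0.077, 0.080 and 0.066. With 3 mice per group, these values cannot exclude that mice of a number were processed together, and the main test used no pairing. Of the 20 pairs given only by range, 17 changed direction under some setting. Over all genes, endothelial calls numbered 1, but 33 by DESeq2 and 307 without the filter, and interstitial macrophage calls 0, but 9 and 166. Thinned to 1000 UMIs, 5 of 6 genes kept their highest class, and for Fcer1g NK cells came first. Classical monocytes could not be fitted with doublets kept, nor interstitial macrophages with gated cells or the block. Low counts limit Fcgr1 outside macrophages and classical monocytes.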
